A study of Brassica rapa subsp. pekinensis with 10 samples.

Results

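Early transient features were array features whose signal was high after 15 min of cold and back near the level of unchilled plants after 120 min. They were chosen on log2 signal by 3 conditions. Both 15 min arrays had to stand at least 0.5 above the higher of the 2 normal arrays. The 120 min array of each variety had to lie at least 0.8 below its 15 min array, and neither 120 min array could exceed the higher normal array by more than 0.5. Of 47548 features, 67 (0.141%) met all 3 conditions, and 2176 (4.58%) met the first alone. The values that chose them are given below as a description, without a test. The 30 and 60 min arrays took no part in the choice.

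The plants were Chinese cabbage, Brassica rapa subsp. pekinensis, and came from 2 varieties. For Shin-Hong and for Man-Su alike, a single array was labelled normal and single arrays followed after 15, 30, 60 and 120 min of cold stress, without replicates. Tissue, temperature, plant age and the number of plants behind an array are not stated in the labels. In RNA of a whole sample, fewer cells of a type and less RNA per cell cannot be told apart. The array features carry IDs that the files do not pair with genes, and 0 of 47548 matched the gene table used here, so the members are described by their signal alone.

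Plants register a drop in temperature within minutes through calcium entry and protein kinases, and a first set of transcripts follows before most cold-regulated genes respond. In Arabidopsis the best known members of this first set encode transcription factors, such as the DREB1 (CBF) family, which switch on later cold-regulated genes. A transcript level that has risen declines again when decay of the RNA exceeds its synthesis. Whether any of these features represents such a factor was not tested.

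Normal and cold arrays did not match by variety label. Across the 47548 features the array labelled Shin-Hong normal had a Pearson correlation of 0.933 to 0.957 with the Man-Su cold arrays and of 0.899 to 0.907 with the Shin-Hong cold arrays. The array labelled Man-Su normal had 0.938 to 0.962 with the Shin-Hong cold arrays and 0.928 to 0.931 with the Man-Su cold arrays. The choice of members used both normal arrays without their labels, so it did not depend on them. The 6 control features, 5 barcode sequences and a random-sequence control, also differed. Their mean was 7.42 and 7.65 log2 units in the normal arrays, 8.11 to 8.44 in the Shin-Hong cold arrays, 8.36 in Man-Su cold at 30 min and 7.40 to 7.77 in Man-Su cold at 15, 60 and 120 min.

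The rise at 15 min was moderate in most members. Measured as the lower 15 min array minus the higher normal array, it had a median of 0.81 log2 units and ranged from 0.51 to 2.03, and 22 of 67 members stood at least 1 unit, a doubling of signal, above normal. Relative to the mean of the normal arrays, the median member stood at 1.43 in Shin-Hong and 1.29 in Man-Su at 15 min. At 30 min these medians were 1.33 and 1.32, at 60 min 0.87 and 0.75, and at 120 min 0.15 and -0.15. The medians of all 47548 features stayed between -0.01 and 0.09 in the 10 arrays. The 15 min level was thus still present at 30 min, and most of the return came later.

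**Figure D1:**
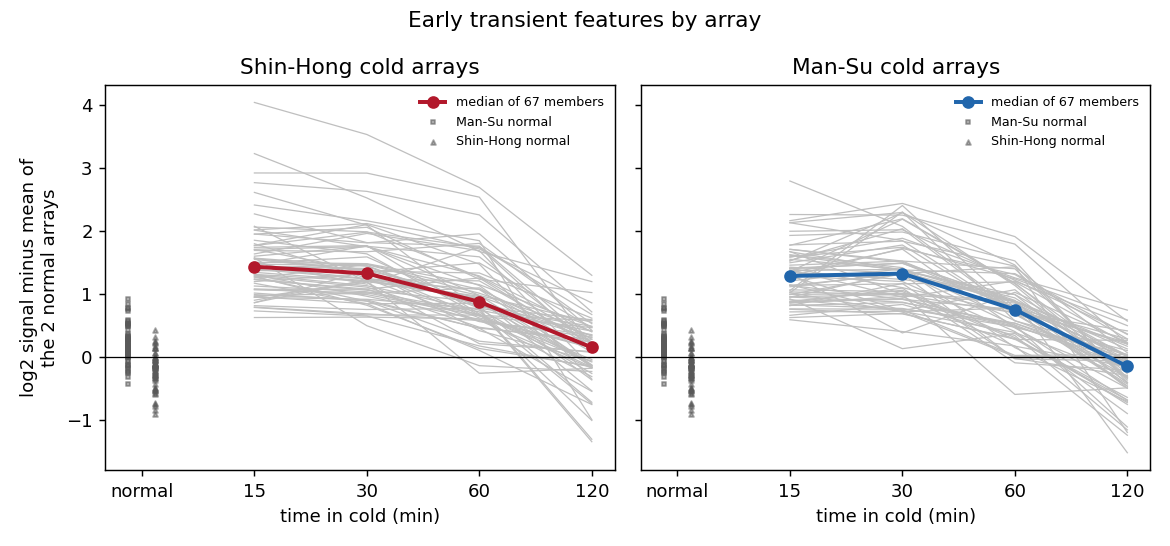
Log2 signal of the 67 members minus the mean of the 2 normal arrays (vertical axis) against time in cold (horizontal axis, min) in the Shin-Hong and Man-Su cold arrays. Grey lines are members, coloured lines their median, and squares and triangles the 2 normal arrays; the median is flat from 15 to 30 min, 1.43 to 1.33 in Shin-Hong and 1.29 to 1.32 in Man-Su, and near 0 at 120 min.

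The largest rise was in Brapa_ESTC020370. Its log2 signal was 8.64 and 8.56 in the Man-Su and Shin-Hong normal arrays. In the Shin-Hong cold arrays it was 10.67, 9.79, 8.34 and 8.42 at 15, 30, 60 and 120 min, and in the Man-Su cold arrays 11.39, 10.67, 9.35 and 8.83. At 15 min each variety exceeded the higher normal array by 4.09-fold or more, and this was 1 of 2 members with the Shin-Hong array below both normal arrays at 60 min. Its 60 minus 30 min difference, -1.39 ± 0.19 log2 units (SE), was the most negative among the members (limma unadjusted p = 0.000758, adjusted p = 0.989).

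The second largest rise, in Brapa_ESTC011838, had another course. Its log2 signal was 12.01 and 11.36 in the Man-Su and Shin-Hong normal arrays. It was 13.63, 13.49, 13.64 and 12.10 at 15, 30, 60 and 120 min in Shin-Hong and 13.94, 13.93, 13.47 and 11.90 in Man-Su. All 6 arrays from 15 to 60 min lay above both normal arrays without overlap, and the 2 arrays at 120 min lay close to the higher of them. From 30 to 60 min it differed by -0.16 ± 0.23 log2 units (SE; limma adjusted p = 0.990), a sign that turned without either Man-Su array of this step and with a term for the control level.

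**Figure D2:**
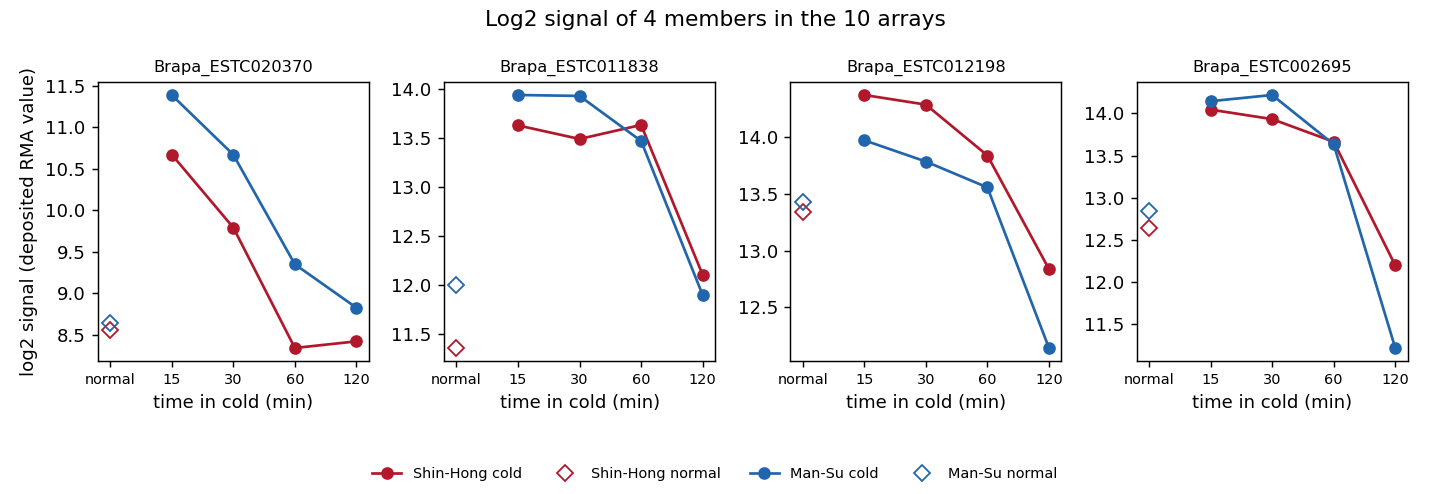
Log2 signal (vertical axis) of the 2 members with the largest rise at 15 min, Brapa_ESTC020370 and Brapa_ESTC011838, and the 2 lowest below normal at 120 min, Brapa_ESTC012198 and Brapa_ESTC002695, against time in cold (min). Each point is 1 array, red for Shin-Hong and blue for Man-Su, with open diamonds for the normal arrays; Brapa_ESTC020370 is near normal at 60 min in Shin-Hong, while Brapa_ESTC011838 is still at 13.64 and 13.47.

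Speed of return was measured as the share of the 15 min height above the mean of the normal arrays that was left later. Averaged over both varieties, the median member kept 97.1% of its height at 30 min, 67.8% at 60 min and 0.95% at 120 min. The other features that met the condition at 15 min, 2109 in number, had medians of 102% at 30 min and 85.2% at 60 min. A height kept at 30 min was thus not particular to the members. At 30 min the quartiles of the members were 87.9% and 106%, and 1 member was under 50%. At 60 min the quartiles were 50.5% and 77.7%, and 17 members were under 50%. The 15 and 120 min values chose the members, so the rule fixed the return by 120 min and by itself favours a high value at 15 min. It set no limit at 30 and 60 min.

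In Shin-Hong the median share left was 91.9% at 30 min, 66.3% at 60 min and 9.91% at 120 min. In Man-Su it was 102%, 58.2% and -13.3%. Both varieties were measured against the same mean of the normal arrays, so a level difference between them bears on these shares. The highest of the 4 cold values fell at 15 min in 42 members, at 30 min in 19 and at 60 min in 6 in Shin-Hong, and at 15 min in 28, at 30 min in 37 and at 60 min in 2 in Man-Su. The rule favours a high value at 15 min and allows no highest value at 120 min, so it bears on these counts. The Man-Su array at 30 min had the raised control features named above, 8.36 against 7.77 at 15 min. With 1 array per time and variety, this difference in timing was not tested.

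**Figure D3:**
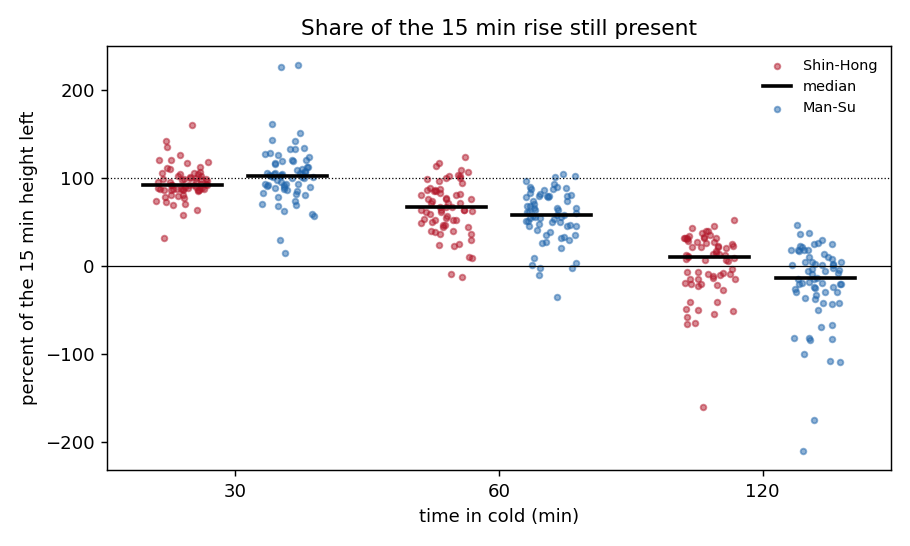
Percent of the 15 min height above the mean of the normal arrays left at 30, 60 and 120 min of cold (vertical axis, percent; horizontal axis, min) for each of the 67 members in Shin-Hong (red) and Man-Su (blue). Black bars are medians, 91.9% and 102% at 30 min, 66.3% and 58.2% at 60 min and 9.91% and -13.3% at 120 min.

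Counting a member as back when both arrays of a time were at most 0.5 above the higher normal array, 0 of 67 were back at 30 min, 14 at 60 min and the other 53 first at 120 min. Both arrays were still at least 0.5 above the higher normal array in 60 members at 30 min and in 27 at 60 min, where 6.16% and 3.93% of all features met this condition. Of the 2109 other features raised at 15 min, 81.1% and 57.6% met it. At 15 min, where the rule set it, the share of all features was 4.58%. The members shared their normal arrays with the rule, so nothing is read from these shares. Averaged over the varieties, the largest decrease between neighbouring times lay between 60 and 120 min in 54 members, between 30 and 60 min in 13 and between 15 and 30 min in 0. The members' median change was -0.97, -0.45 and -0.04 log2 units over these intervals. They differ in length, the latest being the longest, so the count does not give a rate. The rule used the 15 and 120 min values and bears on it.

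The 14 members back at 60 min had a median of 83.8% of their height left at 30 min and 37.3% at 60 min. The 53 others had 100.6% and 72.3%. The split was made on the 60 min values, so it bears on the shares at 60 min and nothing is read from their difference.

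The member with the fastest return at both 30 and 60 min stood at 11.39 and 11.27 log2 units in the Man-Su and Shin-Hong normal arrays. It had 12.90, 11.82, 11.19 and 11.10 at 15, 30, 60 and 120 min in Shin-Hong and 13.00, 12.32, 10.73 and 10.84 in Man-Su. At 30 min 45.7% of its height was left, and both varieties were below both normal arrays at 60 and 120 min. It was the only member below normal in both varieties at 60 min.

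The member with the median rise at 15 min was another quick one. Its log2 signal was 10.78 and 10.59 in the Man-Su and Shin-Hong normal arrays, then 11.96, 11.50, 10.82 and 10.53 in Shin-Hong and 11.59, 11.43, 10.71 and 10.72 in Man-Su. It kept 71.4% of its height at 30 min and 7.22% at 60 min, and the 4 arrays at 60 and 120 min lay between 10.53 and 10.82.

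The slowest return at 60 min was in a member with 11.20 and 10.22 log2 units in the Man-Su and Shin-Hong normal arrays. It had 12.21, 11.86, 12.45 and 11.38 at 15, 30, 60 and 120 min in Shin-Hong and 11.99, 12.43, 12.01 and 10.99 in Man-Su. Its height at 60 min was 110% of that at 15 min, and its return lay between 60 and 120 min.

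The step from 30 to 60 min used only arrays that had no part in the choice. It lies inside the longer interval over which the rule required a decrease in each variety. The rule therefore favours a lower value at 60 min than at 30 min. The rule thus bears on the members' shares and medians given here, and nothing is read from their differences from the other sets. Of the 67 members, 52 (77.6%) were lower at 60 min than at 30 min in both varieties, 15 moved in opposite directions and 0 were higher in both. Among all features 25.9% were lower in both and 23.6% higher in both. Of the 2109 other features raised at 15 min, 53.5% were lower in both. The members' median was -0.39 log2 units in Shin-Hong and -0.49 in Man-Su, against -0.02 and 0.00 for all features and -0.18 and -0.19 for the other features raised at 15 min. At least 0.5 units lower in both varieties were 13 members (19.4%), where the share of all features was 0.726% and that of the other features raised at 15 min was 5.03%.

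No single member passed the test of this step. Limma called 0 of 47548 features at an adjusted p under 0.05, 0%, and so 0 of 67 members. An unadjusted p under 0.05 was reached by 26 members (38.8%), all lower at 60 min, against 3.33% of all features in either direction and 1.68% lower at 60 min. The decrease that the rule required bears on this share and on its direction, so they are no separate test of the members. The test had 1 residual degree of freedom, from the difference between the varieties' 30 to 60 min steps. Limma combined that difference with a spread estimated over all features, which counted for 3.92 degrees of freedom. On simulated data of this design it found 0% of the features changed by 1 log2 unit and 56% of those changed by 2 units, a size that no member reached. Fitted to all 8 cold arrays, the same step gave 27 members with an unadjusted p under 0.05. Leaving a Man-Su array of this step out of that larger fit gave fewer such members. Their median step was then -0.43 log2 units without the 30 min array and -0.46 without the 60 min array, taken over all 67.

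Between 30 and 60 min the mean of the control features changed by -0.78 log2 units in Man-Su and by 0.12 in Shin-Hong. In Shin-Hong 59 of 67 members were lower at 60 min, against 52.4% of all features. In Man-Su 60 of 67 were lower, against 49.9%. The decrease that the rule required in each variety bears on these counts as well. With the control level as a term in the fit of all 8 cold arrays, the members' median step was -0.43 log2 units and 24 had an unadjusted p under 0.05, against -0.45 and 27 in that fit without the term. Of all features, 2.77% had such a p-value with the term and 2.62% without it. The size of the step in one variety said little about its size in the other: across the 67 members the Pearson correlation of the 2 steps was 0.04, and across all features -0.04.

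**Figure D4:**
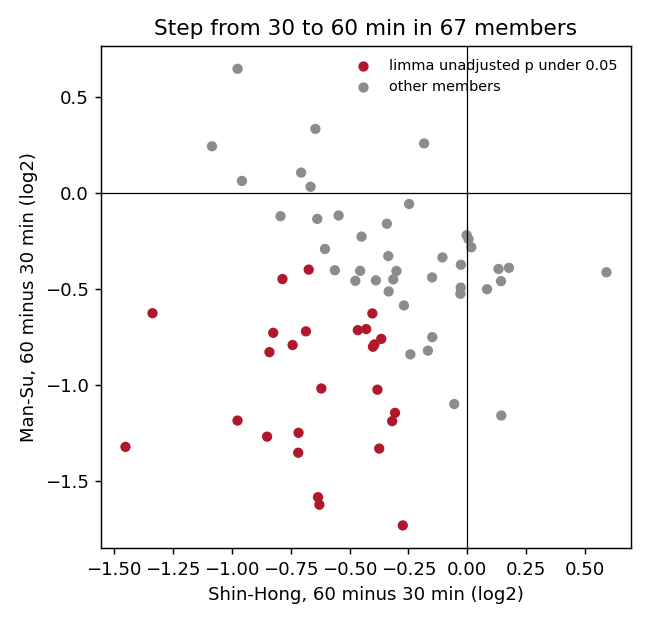
Difference in log2 signal between 60 and 30 min of cold in Shin-Hong (horizontal axis) and Man-Su (vertical axis) for the 67 members. Points are members, red where the unadjusted limma p was under 0.05 (26 members); 52 lie below 0 on both axes and 0 above 0 on both.

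The varieties were compared at 30 and 60 min, again without the arrays of the rule. Limma called 3 of 67 members (4.48%), 2 higher and 1 lower in Shin-Hong, where 3.70% of all features were called, so the members' share was near the background. An unadjusted p under 0.05 was reached by 17 members, 14 of them higher in Shin-Hong, and by 27.4% of all features. Of these 13037 features, 6666 were higher in Shin-Hong. In the fit of all 8 cold arrays 16 of 67 members were called, 14 of them higher in Shin-Hong, and 22.3% of all features were called, so the members' share was again near the background. Of the 10612 features called in that fit, 5142 were higher in Shin-Hong. Whether the members' direction differed from that of all features was not tested.

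The first member called higher in Shin-Hong stood 1.32 ± 0.21 log2 units higher there (SE; limma adjusted p = 0.0475). It had 10.87 and 9.33 in the Man-Su and Shin-Hong normal arrays, 13.33, 12.62, 11.77 and 11.29 at 15, 30, 60 and 120 min in Shin-Hong and 11.72, 11.52, 10.25 and 9.39 in Man-Su. Shin-Hong was higher at each of the 4 times, while the array labelled Man-Su was the higher of the normal arrays.

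The second stood 1.24 ± 0.18 log2 units higher in Shin-Hong (SE; limma adjusted p = 0.0438). It had 8.32 and 6.49 in the Man-Su and Shin-Hong normal arrays, 11.44, 10.93, 10.09 and 8.70 in Shin-Hong and 8.92, 9.69, 8.86 and 7.04 in Man-Su. Its Man-Su value at 15 min was 0.61 above the higher normal array. Shin-Hong was higher at each time here too, and the Man-Su normal array again exceeded the Shin-Hong one.

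The member called lower in Shin-Hong differed by -1.34 ± 0.19 log2 units (SE; limma adjusted p = 0.0389). It had 11.04 and 11.33 in the Man-Su and Shin-Hong normal arrays, 11.91, 11.83, 11.36 and 11.02 in Shin-Hong and 13.11, 13.16, 12.71 and 10.78 in Man-Su. The gap was wide from 15 to 60 min, and at 120 min the Man-Su array was the lower of the 2. Its call ended in the fit of all 8 cold arrays, where the difference was -0.91 (limma adjusted p = 0.0614), and also when a 30 min array (adjusted p = 0.108) or a 60 min array (adjusted p = 0.233) was left out of that fit. Both members called higher in Shin-Hong stayed under an adjusted p of 0.05 in each of these fits. All of these fits include 15 and 120 min arrays that the rule used, so they are no separate test of the members.

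By their labels, the normal arrays of the members differed the other way from most cold arrays. The array labelled Man-Su normal was the higher one in 54 of 67 members (80.6%), against 49.0% of all features. In the cold arrays Shin-Hong was higher than Man-Su in 42 members at 15 min, 38 at 30 min, 45 at 60 min and 43 at 120 min. These are 62.7%, 56.7%, 67.2% and 64.2% of the members, where Shin-Hong was higher in 46.0%, 50.8%, 46.4% and 46.7% of all features. The rule used the normal, 15 and 120 min arrays. It bears on the shares in those arrays, and nothing is read from them.

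Undershoot in both varieties was counted as both arrays of a time below the lower normal array. At 30 min 0 members and at 60 min 1 member met this, where 24.2% and 15.5% of all features did. The rule placed the members above both normal arrays at 15 min, so nothing is read from these shares. None was lower by 0.5 log2 units in both at 60 min, against 1.49% of all features. At 120 min 13 members (19.4%) had both arrays below the lower normal array, against 22.3% of all features. The rule itself bears on this share, and nothing is read from it. None of these 13 was lower by 0.5 log2 units in both varieties (3.93% of all features), but Brapa_ESTC012198 missed that limit only at -0.499969. The member ranked 3 among the 13, at -0.42, had normal and 120 min arrays below every value of the random-sequence control. Its low values are therefore not above background. Of the 13, 6 were within 0.05 units of the lower normal array. Another 6 members (8.96%) had both 120 min arrays above the higher normal array, against 28.1% of all features, a count that the rule also bears on.

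In single arrays the Man-Su 120 min array lay below the lower normal array in 30 of 67 members (30.6% of all features) and the Shin-Hong 120 min array in 22 (39.0% of all features). By at least 0.5 log2 units these numbers were 7 and 4, with 6.78% and 14.8% of all features. Against the normal array of the same label, Man-Su at 120 min was lower in 52 members, with a median of -0.41, and Shin-Hong in 26, with a median of 0.14; 44.8% and 49.9% of all features were lower. Against the normal array of the other label, Man-Su was lower in 33 members, with a median of 0.01, and Shin-Hong in 35, with a median of -0.01; 45.2% and 50.2% of all features were lower. Measured against a single normal array, the lower median of Man-Su at 120 min was thus present with the labels as given and absent with the normal arrays exchanged. Without any normal array, the members' median of Shin-Hong minus Man-Su at 120 min was 0.24 log2 units, against -0.03 for all features. The rule used these arrays, so nothing is read from this gap.

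The deepest undershoot shared by both varieties was in Brapa_ESTC012198. Its log2 signal was 13.43 and 13.34 in the Man-Su and Shin-Hong normal arrays. It was 14.37, 14.29, 13.84 and 12.84 at 15, 30, 60 and 120 min in Shin-Hong and 13.97, 13.79, 13.56 and 12.14 in Man-Su. Both arrays at 60 min were above both normal arrays, and both at 120 min were below, the higher one by -0.50 units relative to the lower normal array. The step from 30 to 60 min was -0.34 ± 0.19 log2 units (SE) with a limma adjusted p of 0.989, and -0.21 when the Shin-Hong 60 min array was left out of the 8-array fit.

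Brapa_ESTC002695 came next. Its log2 signal was 12.84 and 12.63 in the Man-Su and Shin-Hong normal arrays. It was 14.05, 13.93, 13.66 and 12.20 in Shin-Hong and 14.15, 14.22, 13.63 and 11.22 in Man-Su. The varieties were close from 15 to 60 min and furthest apart at 120 min, where both lay below both normal arrays. The step from 30 to 60 min was -0.43 ± 0.20 log2 units (SE) with a limma adjusted p of 0.989. In the fit of all 8 cold arrays it was -0.13 without the Man-Su 30 min array, -0.72 without the Shin-Hong 30 min array and -0.16 with the control-level term.

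**Figure D5:**
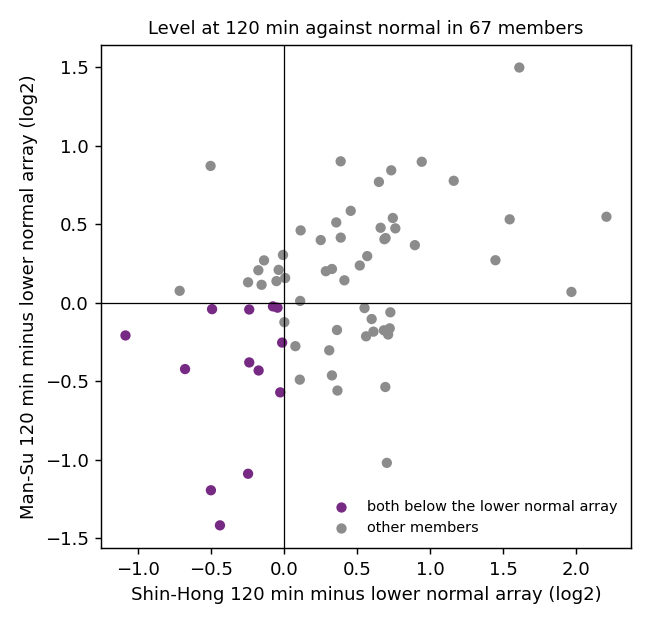
Log2 signal at 120 min of cold minus the lower of the 2 normal arrays in Shin-Hong (horizontal axis) and Man-Su (vertical axis) for the 67 members. Points are members; the 13 in purple are below the lower normal array in both varieties, and the deepest in both, Brapa_ESTC012198, is at -0.499969 in its higher array.

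The members were not unusual in their probes and somewhat dimmer than most features. In normal arrays their median was 11.01 log2 units with quartiles of 9.58 and 11.93, against 12.01 for all features, and 66 of 67 (98.5%) had 7 probes, against 98.4% of all features. In 4 members at least 1 array lay below 5.74, the highest value of the random-sequence control, so their low values are not well above background. In 1 of these 4, 8 of the 10 arrays lay below 5.13, the lowest value of that control.

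Pairs of features with neighbouring ID numbers were looked at after their values were seen, and 2 such pairs lay among the 67. Both members of one pair were higher at 30 than at 15 min in Man-Su, going from 1.02 to 2.30 and from 1.05 to 2.40 log2 units above the mean of the normal arrays, and were at 0.10 and 0.02 at 120 min. In Shin-Hong they had 1.63 and 1.77 at 15 min and 1.96 and 2.10 at 30 min. They kept 161% and 159% of their height at 30 min averaged over the varieties, the largest shares of all members. The other pair included the dimmest member. The labels do not say whether paired features stand for 1 transcript.

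The thresholds cut through a continuous range. The members nearest the limit at 15 min had rises of 0.51, 0.53 and 0.54 log2 units, and the features that missed only this limit began at 0.4995, 0.4975 and 0.4944. For the decrease from 15 to 120 min, members began at 0.80, 0.82 and 0.82, and the nearest features outside had 0.797, 0.796 and 0.796. For the limit at 120 min, members reached 0.498, 0.497 and 0.482 above the higher normal array, and the 26 features that missed only this limit began at 0.58, 0.60 and 0.61. A total of 198 features missed only the limit at 15 min and 238 only the decrease.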

How the data were processed

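Total RNA was labelled with Cy3 and hybridised to one-colour NimbleGen arrays, per the labels' protocols. The authors deposited 1 intensity per feature and array on a linear scale, computed with RMA (background correction, normalization between arrays, summary over probes), per the submitters' processing notes. Per the file headers, the other kind of value used was a feature's number of probes. No version, and no statement on whether the arrays were normalized together, is given in the sources used here.

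Deposited intensities were taken to log2 with no filter. The quantile normalization over the 10 arrays was an alternative, since the rule for the members is on deposited values. The members and lists were chosen with earlier results of these data known.

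Limma 3.58.1 in R 4.3.3 (lmFit, eBayes) was fitted to the 4 arrays at 30 and 60 min with time and variety as terms. P-values were adjusted by Benjamini-Hochberg over 47548 features and called under 0.05. With 1 array per group the 2 varieties served as samples of the 30 to 60 min step, and the spread may be partly technical. The test was tried on simulated data with 100 changes per size, with 8 false calls, and made 0 calls with no change. The number of arrays limits the precision. IDs were printed for the 2 largest rises and the 2 deepest undershoots, and other members were described by rank.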

Additional observations from a re-analysis of the deposited data

Results flagged for a closer look

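From 15 to 30 min the median change of the members was -0.0912 log2 units in Shin-Hong and 0.0252 in Man-Su, opposite in sign. The difference between the varieties was not tested. The control features, which were not tested as features, were above both normal arrays (7.42 and 7.65) in 6 of the 8 cold arrays. Their mean was 8.37, 8.11, 8.23 and 8.44 log2 units in Shin-Hong at 15, 30, 60 and 120 min and 7.77 and 8.36 in Man-Su at 15 and 30 min.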

How the results depend on the processing

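No paired analysis by replicate number was made, as each group held 1 array and the labels number none; variety was a block in every fit of 60 against 30 min. For 60 against 30 min, 0 features were called under each alternative. The members' median step was -0.45 log2 units and 26 members had an unadjusted p under 0.05; all 8 cold arrays gave -0.45 and 27, and leaving an array out of that 8-array fit gave -0.57 to -0.43 and 15 to 23. Without the Shin-Hong 30 min array the median was -0.57. The sign for Brapa_ESTC011838 turned to 0.0041 with a control-level term, and it ranged from -0.39 to 0.0715 with an array left out (0.0715 without Man-Su 30 min, 0.0143 without Man-Su 60 min). Variety calls, 1759 in all features and 3 in members, became 3673 features on quantile normalized values, 10612 and 16 with all 8 cold arrays, and 3987 and 6 with the control-level term. With an array left out of that 8-array fit they were 1681 to 11551 and 2 to 14, the highest without either 30 min array. The cause was not tested.

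The rule gave 64 features on quantile normalized values, 61 of them shared with the 67. It gave 36 with a rise of 0.8, 112 with a decrease of 0.6, 37 with a decrease of 1.0 and 33 with a bound of 0 at 120 min. With the higher normal array as reference the median share left at 120 min was -21.6% in place of 0.95%, since that reference lies higher. Members back at 30 min numbered 10 within 0.8 and 1 on quantile normalized values, and 6 were back at 60 min within 0.3. Below the mean of both normal arrays at 120 min were 20 members, against 13 below the lower one. Man-Su alone gave 30, an alternative chosen after seeing the data, like the Shin-Hong count of 59 for the 30 to 60 min step. Dim signal limits the low values of 4 members.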
